A study of Mus musculus with 15 samples.

Results

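The immediate early genes examined here were Fos, Fosb, Fosl1, Jun, Junb, Atf3, Egr1, Egr2, Ier2 and Ier3. They were found by taking every non-control probe whose gene name in the scanner files equals one of these symbols. This gave 10 probes of 39429, 1 per gene, read from 19 of 43020 non-control spots, because the Fos probe is printed 10 times. All 10 genes were among the 21217 that passed the filter on dim probes. The arrays came from mouse embryonic stem (ES) cells and from the embryoid bodies labelled EB9, which are aggregates that ES cells form when they differentiate. At each stage, cells labelled as depleted of Cbx7 by the hairpin KD33 were set against a control whose treatment is labelled "none" and which the design text calls shCtr. The control ES cells have 3 arrays and the other groups (control EB9, knockdown ES and knockdown EB9) have 4 each, which the design text describes as biological replicates. The ES line, the mouse strain and the composition of the culture medium are not given in the sources used here, and the knockdown rests on 1 hairpin. In such bulk samples, fewer cells of a type and less RNA per cell cannot be told apart.

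Immediate early genes are transcribed within minutes of a stimulus, without new protein synthesis, mostly by factors that already sit at their promoters: serum response factor (SRF) with its ternary complex partners downstream of ERK signalling, and CREB or ATF proteins at cyclic AMP response elements. The Fos and Jun proteins pair to form the AP-1 transcription factor, and the Egr proteins are zinc finger factors that bind GC-rich sites. Cbx7 is a chromobox subunit of the Polycomb repressive complex PRC1 and is the main chromobox protein of mouse ES cells.

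Probes of 6 members are placed by the files on build mm9 as follows, with no statement here on exon or untranslated region because no annotation of that build was used. The Fos probe, A_52_P262219, lies at chr12:86817900-86817959 and the Jun probe, A_55_P2158990, at chr4:94716928-94716987. The Junb probe, A_55_P2011106, lies at chr8:87501881-87501940 and the Atf3 probe, A_52_P452689, at chr1:192994547-192994606. The Egr2 probe, A_55_P2033362, lies at chr10:67004798-67004857 and the Ier3 probe, A_51_P286488, at chr17:35959528-35959587.

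RefSeq promoter windows (build GRCm38.p6) were matched by symbol for 7 of the 10 members, not for Fosl1, Egr1 and Ier2. The 130 bases before the transcription start are shown 5′ to 3′ on the gene's strand for the 6 of these 7 that passed in a knockdown comparison, all but Fosb, with capitals marking each match to a searched motif. The windows lie at chr12:85473760-85473889 (Fos, plus strand), chr4:95052223-95052352 (Jun, minus), chr8:84978749-84978878 (Junb, minus), chr1:191183334-191183463 (Atf3, minus), chr17:35821583-35821712 (Ier3, plus) and chr10:67537739-67537868 (Egr2, plus, the third of 5 starts).
Fos: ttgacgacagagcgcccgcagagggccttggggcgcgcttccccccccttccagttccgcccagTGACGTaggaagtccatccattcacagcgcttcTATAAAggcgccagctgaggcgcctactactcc
Jun: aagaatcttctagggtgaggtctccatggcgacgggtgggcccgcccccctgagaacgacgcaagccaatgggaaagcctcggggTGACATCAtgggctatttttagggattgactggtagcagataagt
Junb: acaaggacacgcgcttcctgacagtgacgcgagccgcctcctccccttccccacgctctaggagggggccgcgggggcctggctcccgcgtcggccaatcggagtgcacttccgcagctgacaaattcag
Atf3: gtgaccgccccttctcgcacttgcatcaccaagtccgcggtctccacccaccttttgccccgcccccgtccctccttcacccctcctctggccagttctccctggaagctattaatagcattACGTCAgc
Ier3: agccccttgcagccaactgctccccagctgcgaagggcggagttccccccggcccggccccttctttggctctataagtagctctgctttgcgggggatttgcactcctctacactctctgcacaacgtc
Egr2: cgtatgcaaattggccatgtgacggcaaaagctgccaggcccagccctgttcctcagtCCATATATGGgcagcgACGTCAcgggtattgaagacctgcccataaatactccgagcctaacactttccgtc

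The motifs searched on both strands were TGACGT and TGACNTCA (cyclic AMP response element type), TGANTCA (AP-1), GCGNGGGCG (Egr), the CArG box (SRF) and TATAAA. Counted from the start at +1, Fos carried TGACGT at -66 to -61 and TATAAA at -33 to -28. Jun carried TGACNTCA at -45 to -38, and Atf3 carried TGACGT on the opposite strand at -8 to -3. The Egr2 window held a CArG box at -72 to -63 and TGACGT on the opposite strand at -56 to -51, and windows 4 and 5 of Egr2 also held both. The Fosb window held GCGNGGGCG at -50 to -42, and no searched motif was found in the 130 bases of Junb or Ier3. Among 32851 RefSeq windows of 250 bases before a start, TGACGT was present in 6.47%, TGACNTCA in 7.49%, TGANTCA in 6.75%, GCGNGGGCG in 4.7%, the CArG box in 1.47% and TATAAA in 12.4%. TGACGT and TGACNTCA overlap in their first bases, so their shares are not independent.

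Levels below are the base-2 logarithm of the processed signal of the scanner software minus the 75th percentile of the array, so 0 stands for that percentile over the non-control features. They compare arrays for 1 probe and do not rank different genes, since probes differ in how brightly they hybridise. The 75th percentile itself ranged from 1483.2 to 2531.1 intensity units, and between 62.5 and 69.0% of features lay well above background on 14 arrays and 75.4% on EB9 control 2. The Fosl1 probe was well above background on 9 of 15 arrays, 1 of 4 in each EB9 group, and the other 9 members on all 15. The replicate SD pooled over the groups ran from 0.09 for Atf3 to 0.57 for Fosl1, against a median of 0.15 over all genes. The 10 Fos spots of an array had an SD between 0.043 and 0.153. The number of arrays limits the precision. Each slide held at most 1 array of each group, slide 4 lacked a control ES array, and ES controls 2, 3 and 4 lay on slides 1, 2 and 3. Each group kept its own position on the slides, which cannot be told apart from the group.

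The Cbx7 transcript was read first, as a check of the labels. A probe for Cbx7, A_55_P1980408 (an AK045714 transcript), ranged from -4.97 to -4.21 in control ES cells and from -4.86 to -4.36 in knockdown ES cells. Those ranges overlapped, and the difference was -0.13 (SE 0.23, adjusted p = 0.733). The RefSeq mRNA probe, A_55_P1980401 (NM_144811), ranged from -6.30 to -3.04 in control and from -7.85 to -4.44 in knockdown ES cells. Its difference was -1.91 (SE 1.23, adjusted p = 0.256) without regard to slide, and -1.41 (SE 0.17, adjusted p = 0.0001) with slide as a block. That probe was well above background on 2 of 4 knockdown ES arrays. In EB9 it was well above background on 2 of 4 arrays of each group. Its difference there was -0.27, with SE 1.14 (adjusted p = 0.92) without regard to slide and SE 0.15 (adjusted p = 0.221) with the block. The AK045714 probe gave -0.16 in EB9 (SE 0.22, adjusted p = 0.708). A lower Cbx7 signal in EB9 libraries labelled as knockdown was thus not shown here, and directions below follow the labels.

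Differences were tested with limma over all probes that passed the filter, and adjusted p is the Benjamini-Hochberg value over them, called at an adjusted p under 0.05. SE is the moderated standard error of a log2 difference. With Cbx7 knockdown in EB9, 4 of the 10 members were higher and none lower, where 7.75% of all 21217 genes were called higher and 6.97% lower. The 4 were Fos, Junb, Ier3 and Atf3, each higher by between 1.54-fold and 1.77-fold. In ES cells 2 members were higher (Jun and Egr2) and 2 lower (Egr1 and Junb), where 21.8% of all genes were called higher and 16.4% lower. The 4 of 10 called there is near the 38.2% of all genes called in either direction. The median difference of the members was 0.41 in EB9, beside -0.01 over all genes, and -0.06 in ES cells, beside 0.04.

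**Figure D1:**
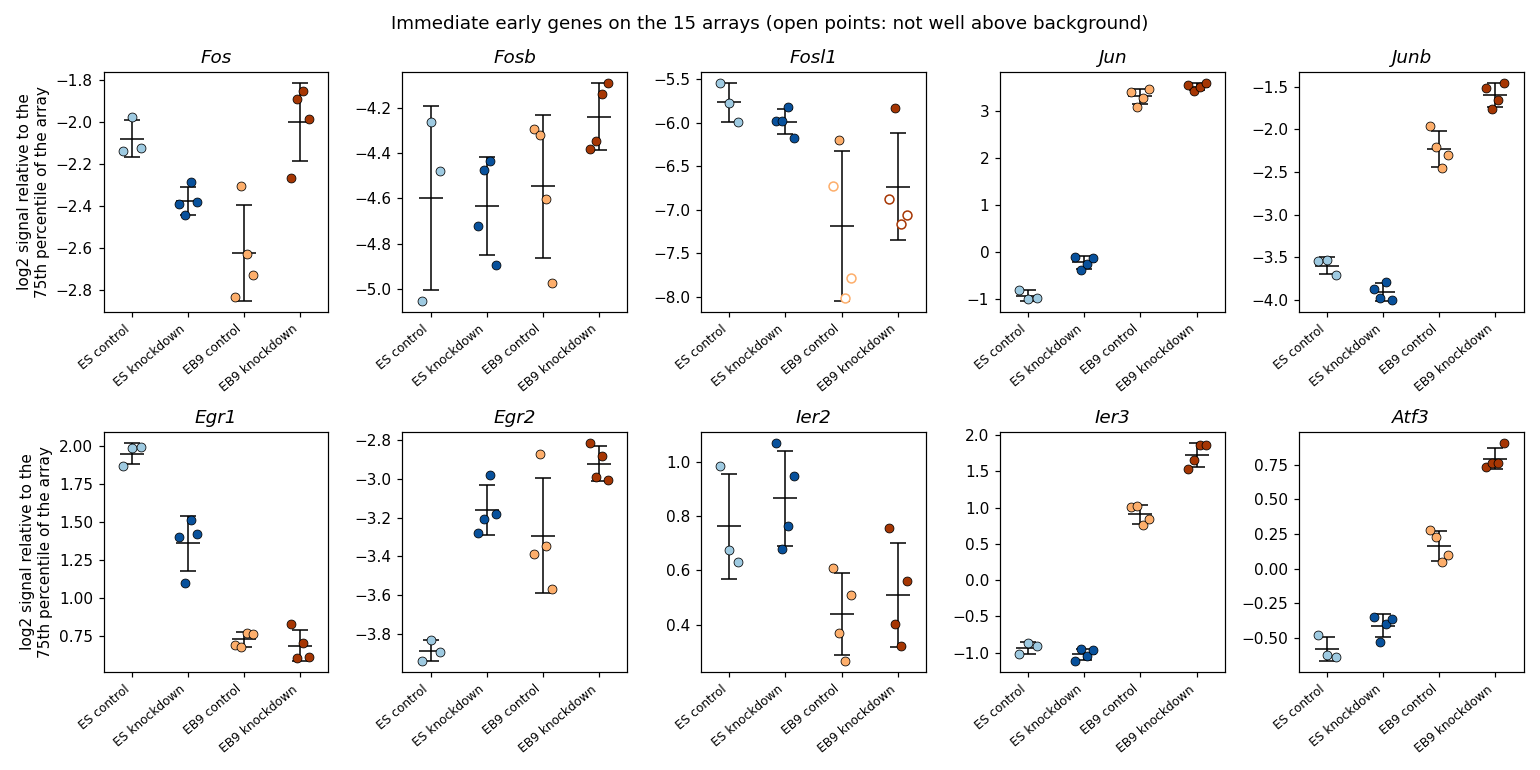
Level of each of the 10 genes on each of the 15 arrays, as log2 signal relative to the array's 75th percentile (vertical axis), by group (horizontal axis); points are arrays and horizontal bars group means. The knockdown EB9 arrays lie above all control EB9 arrays for Fos, Junb, Ier3 and Atf3. The knockdown ES arrays lie above the control ES arrays for Jun and Egr2 and below them for Egr1, Fos and Junb.

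Fos encodes the founding AP-1 subunit that pairs with Jun proteins. In EB9 controls 1 to 4 its levels were -2.83, -2.30, -2.63 and -2.73, and in EB9 knockdowns 1 to 4 they were -2.26, -1.89, -1.85 and -1.99. All 4 knockdown arrays lay above all 4 controls, with EB9 control 2 the nearest to them. The difference was 0.62 (SE 0.11, 1.54-fold, adjusted p = 0.00355). Across ES controls 2 to 4 the levels were -2.13, -1.98 and -2.12, and in ES knockdowns 1 to 4 they were -2.39, -2.44, -2.28 and -2.38. Here the knockdown arrays lay below all controls, with a difference of -0.30 (SE 0.12, adjusted p = 0.0723) that did not pass. It passed under 8 other settings and not under 19. Among the 8 were slide as a block (-0.28, adjusted p = 0.044), normexp correction (adjusted p = 0.0401) and the authors' values (adjusted p = 0.0413). The others were quantile normalization of the processed signal, array weights, only the ES arrays fitted, and leaving out EB9 knockdown 1 or EB9 control 2. The difference between the stages in the knockdown effect on Fos was 0.92 (SE 0.16, adjusted p = 0.00119).

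Fos was thus ordered by stage in opposite directions in the control and in the knockdown cells. EB9 minus ES cells was -0.54 among controls (SE 0.12, adjusted p = 0.00111) and 0.38 among knockdown cells (SE 0.11, adjusted p = 0.00757). From low to high the group means were control EB9 (-2.62 ± 0.23 SD, n = 4), knockdown ES (-2.37 ± 0.07, n = 4), control ES (-2.08 ± 0.09, n = 3) and knockdown EB9 (-1.998 ± 0.19, n = 4). The first pair and the last pair of neighbours in that order overlapped in their array values, and the middle pair did not.

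Fosb and Fosl1 encode the FosB and Fra-1 partners of the Jun proteins. Fosb ranged over only 0.39 log2 units between its 4 group means, from -4.63 ± 0.22 (SD, n = 4) in knockdown ES cells to -4.24 ± 0.15 (n = 4) in knockdown EB9. Its differences with knockdown were -0.03 in ES cells (95% interval -0.47 to 0.40) and 0.31 in EB9 (-0.09 to 0.71), and neither passed (adjusted p = 0.922 and 0.313); the sign in ES cells turned with normexp correction, with the authors' values and with slide as a block. Fosl1 lay between -5.54 and -6.18 on the 7 ES arrays. On the EB9 arrays it lay between -5.83 and -8.02, mostly near background. Among controls EB9 minus ES cells was -1.42 (SE 0.41, adjusted p = 0.00618), with 3 of 4 control EB9 arrays not well above background. With normexp and quantile normalization that Fosl1 difference was -0.33 (adjusted p = 0.00808). The knockdown differences of Fosl1 were -0.22 in ES cells and 0.45 in EB9, with adjusted p of 0.73 and 0.491, and the EB9 value was 0.098 with normexp. Among knockdown cells the stage differences of Fosb (0.39, adjusted p = 0.0672) and Fosl1 (-0.75, adjusted p = 0.0844) did not pass, though each passed under several other choices.

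Jun, the c-Jun subunit that can also pair with itself and with ATF proteins, had the largest span of the 10, 4.45 log2 units between group means. In ES controls 2 to 4 its levels were -0.80, -1.0045 and -0.97, and in ES knockdowns 1 to 4 they were -0.09, -0.39, -0.26 and -0.13. No array of one group reached the other, and Jun was higher with knockdown by 0.71 (SE 0.10, 1.63-fold, adjusted p = 9.73e-05). Across EB9 controls 1 to 4 the levels were 3.40, 3.097, 3.29 and 3.48, and in EB9 knockdowns 1 to 4 they were 3.55, 3.43, 3.51 and 3.60. These ranges overlapped slightly, and the difference of 0.21 (SE 0.09, adjusted p = 0.151) passed with slide as a block (adjusted p = 0.00883) and with normexp background correction (adjusted p = 0.00979), among others. The knockdown effect was smaller in EB9 than in ES cells (difference -0.50, SE 0.13, adjusted p = 0.0126), a call lost when arrays were scaled to their median (adjusted p = 0.0991). From ES cells to EB9, Jun was 18.9-fold higher among controls (4.24, SE 0.10, adjusted p = 2.24e-13) and 13.4-fold higher among knockdown cells (3.74, SE 0.09, adjusted p = 3e-13).

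Junb encodes the Jun family member that often dampens c-Jun activity. In EB9 controls 1 to 4 its levels were -1.96, -2.21, -2.46 and -2.30, and in EB9 knockdowns 1 to 4 they were -1.51, -1.76, -1.66 and -1.45. Every knockdown array exceeded every control, by 0.63 on average (SE 0.10, 1.55-fold, adjusted p = 0.00182). Across ES controls 2 to 4 the levels were -3.54, -3.53 and -3.71, and in ES knockdowns 1 to 4 they were -3.87, -3.98, -3.78 and -4.003. The knockdown ES arrays lay just below the controls, and the difference of -0.31 (SE 0.11, adjusted p = 0.0404) passed narrowly. That call was lost with 5 of 12 other processing choices and without any one of ES knockdown 1, 2 or 4 or ES control 2 or 3. The knockdown effect differed between the stages by 0.95 (SE 0.15, adjusted p = 0.000517) as processed here, and by 0.66 with normexp and quantile normalization. Junb was 2.58-fold higher in EB9 than in ES cells among controls (1.37, SE 0.11, adjusted p = 7.38e-08) and 4.96-fold higher among knockdown cells (2.31, SE 0.10, adjusted p = 1.13e-10).

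Atf3 encodes a stress-induced ATF protein that pairs with Jun proteins and often represses. Across EB9 controls 1 to 4 its levels were 0.28, 0.23, 0.05 and 0.10, and in EB9 knockdowns 1 to 4 they were 0.74, 0.76, 0.77 and 0.91. The groups did not overlap, and the difference was 0.63 (SE 0.07, 1.55-fold, adjusted p = 0.000156). In ES controls 2 to 4 the levels were -0.48, -0.63 and -0.64, and in ES knockdowns 1 to 4 they were -0.35, -0.53, -0.40 and -0.37. There the ranges overlapped, with a difference of 0.17 (SE 0.07, adjusted p = 0.0876) that did not pass. The effect was larger in EB9 by 0.46 (SE 0.10, adjusted p = 0.00384), a call lost with scaling to the array median (adjusted p = 0.116). EB9 exceeded ES cells by 1.67-fold among controls and by 2.31-fold among knockdown cells (adjusted p = 5.74e-07 and 1.37e-09).

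**Figure D2:**
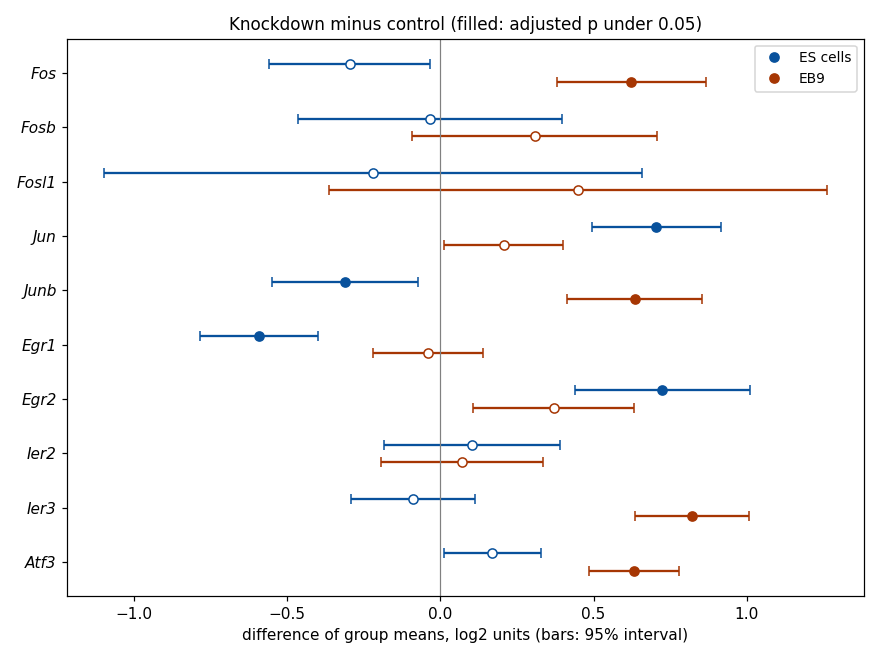
Knockdown minus control for each of the 10 genes in ES cells and in EB9 (horizontal axis, log2 units); points are differences of group means, bars 95% intervals, and filled points passed the test. In EB9 the filled points are Fos, Junb, Ier3 and Atf3, all to the right of 0, and in ES cells they are Jun and Egr2 to the right and Egr1 and Junb to the left.

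Egr1, the zinc finger factor most often used as a readout of ERK signalling, was the member with the clearest fall in knockdown ES cells. Across ES controls 2 to 4 its levels were 1.87, 1.99 and 1.99, and in ES knockdowns 1 to 4 they were 1.40, 1.10, 1.51 and 1.42. All knockdown arrays lay below all controls, and the difference of -0.59 (SE 0.09, adjusted p = 0.000199) is a 1.51-fold lower level. In EB9 controls 1 to 4 the levels were 0.69, 0.68, 0.77 and 0.76, and in EB9 knockdowns 1 to 4 they were 0.82, 0.60, 0.70 and 0.61. These ranges overlapped, and the difference was -0.04 (95% interval -0.22 to 0.14, adjusted p = 0.818). The effect differed between stages by 0.55 (SE 0.12, adjusted p = 0.00434), a call lost with scaling to the array median (adjusted p = 0.0792). Egr1 was lower in EB9 than in ES cells, 2.33-fold among controls and 1.59-fold among knockdown cells (adjusted p = 2.46e-08 and 4.88e-06).

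Egr2 encodes the related zinc finger factor known from hindbrain segmentation and myelination. In ES controls 2 to 4 its levels were -3.94, -3.83 and -3.89, and in ES knockdowns 1 to 4 they were -3.28, -3.20, -2.98 and -3.18. The groups did not overlap, and Egr2 was higher with knockdown by 0.72 (SE 0.13, 1.65-fold, adjusted p = 0.000783), opposite in sign to Egr1. Across EB9 controls 1 to 4 the levels were -3.39, -2.87, -3.34 and -3.57, and in EB9 knockdowns 1 to 4 they were -2.81, -2.99, -2.88 and -3.003. EB9 control 2 lay inside the range of the knockdown arrays and the other 3 controls below it. The difference of 0.37 (SE 0.12, adjusted p = 0.0608) did not pass, whereas it passed without EB9 control 2 (0.51, adjusted p = 0.00236) and with slide as a block (adjusted p = 0.0438). The difference between stages in the knockdown effect was -0.35 and did not pass (adjusted p = 0.165), but passed with 4 of the other processing choices, the 3 quantile-normalized ones and scaling to the array median (adjusted p from 0.017 to 0.041). Among controls Egr2 was higher in EB9 by 0.59 (SE 0.13, adjusted p = 0.00104), and among knockdown cells its difference of 0.24 did not pass (adjusted p = 0.0878), though it passed with 4 other processing choices and without ES knockdown 3 (adjusted p = 0.0499) or EB9 control 2 (adjusted p = 0.0115).

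Ier2 and Ier3 share a name but belong to different families; Ier2 encodes a nuclear regulator, and Ier3 (also called IEX-1) a protein linked to cell survival and to ERK and NF-kB signalling. Ier3 had the largest knockdown difference in EB9 among the 10. In EB9 controls 1 to 4 its levels were 1.02, 1.02, 0.76 and 0.85, and in EB9 knockdowns 1 to 4 they were 1.53, 1.66, 1.86 and 1.87. The groups stood well apart, by 0.82 (SE 0.09, 1.77-fold, adjusted p = 0.000135). Across ES controls 2 to 4 the levels were -1.02, -0.86 and -0.91, and in ES knockdowns 1 to 4 they were -1.12, -0.96, -1.05 and -0.97. Those ranges overlapped, and the difference was -0.09 (95% interval -0.29 to 0.11, adjusted p = 0.5). The effect was larger in EB9 by 0.91 (SE 0.13, adjusted p = 0.000206). From ES cells to EB9, Ier3 was 3.59-fold higher among controls and 6.74-fold higher among knockdown cells (adjusted p = 5.32e-10 and 3.67e-12).

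Ier2 passed in neither knockdown comparison. Its levels ran from 0.63 to 0.98 in control ES, 0.68 to 1.07 in knockdown ES, 0.26 to 0.61 in control EB9 and 0.32 to 0.76 in knockdown EB9 cells, so the groups overlapped at each stage. The knockdown difference was 0.10 in ES cells (95% interval -0.18 to 0.39, adjusted p = 0.597) and 0.07 in EB9 (-0.19 to 0.34, adjusted p = 0.776). EB9 minus ES cells was -0.32 among controls (adjusted p = 0.0393) and -0.36 among knockdown cells (adjusted p = 0.0166), and both calls were lost with scaling to the array median (adjusted p = 0.457 and 0.18). The first was also lost with normexp correction, with the authors' values, without a filter, and without ES control 2 or EB9 control 2 or 3, and the second without ES knockdown 1 or EB9 knockdown 3. With slide as a block the Ier2 differences were -0.35 and -0.36 (adjusted p = 2.78e-05 and 9.32e-06), with the same sign on every slide that held both groups.

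The size of the EB9 knockdown differences varied by slide. On slides 1 to 4 the knockdown array minus the control array of the same slide gave 0.57, 0.41, 0.77 and 0.74 for Fos. For Junb the slides gave 0.45, 0.45, 0.80 and 0.84, for Ier3 0.52, 0.64, 1.10 and 1.02, and for Atf3 0.46, 0.54, 0.72 and 0.81. The sign was the same on all 4 slides, which already follows from the lack of overlap between the groups for these genes. For each of the 4 genes the value was larger on slides 3 and 4 than on slides 1 and 2. That pattern was not counted over all genes. With slide as a block all 4 stayed called (adjusted p from 0.000361 to 0.00224), where 26.1% of all genes were called in either direction.

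The groups did not overlap for 5 of the 10 members in ES cells and for 4 in EB9, where 49.6% and 15.7% of all genes had that property. For stage they did not overlap for 9 members among controls and 7 among knockdown cells, beside 72.9% and 74.2%. For the stage itself, 5 members were higher and 4 lower in EB9 among controls, and 5 were higher and 2 lower among knockdown cells. Of all genes, 33.2% were called higher and 41.5% lower among controls (74.7% in all), and 33.8% and 44.1% among knockdown cells (77.9%). The members' 9 of 10 among controls and 7 of 10 among knockdown cells are read against those shares; the second is near its background. Median absolute differences were 0.98 for the members and 0.76 for all genes among controls, and 0.71 and 0.81 among knockdown cells. The stage comparisons share their arrays with the knockdown comparisons. The difference of the knockdown effect between stages was called for 6 members, 5 of them more positive in EB9, beside 29.4% of all genes called and 12.6% called in that direction. Jun was the 1 called the other way, as were 16.8% of all genes.

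**Figure D3:**
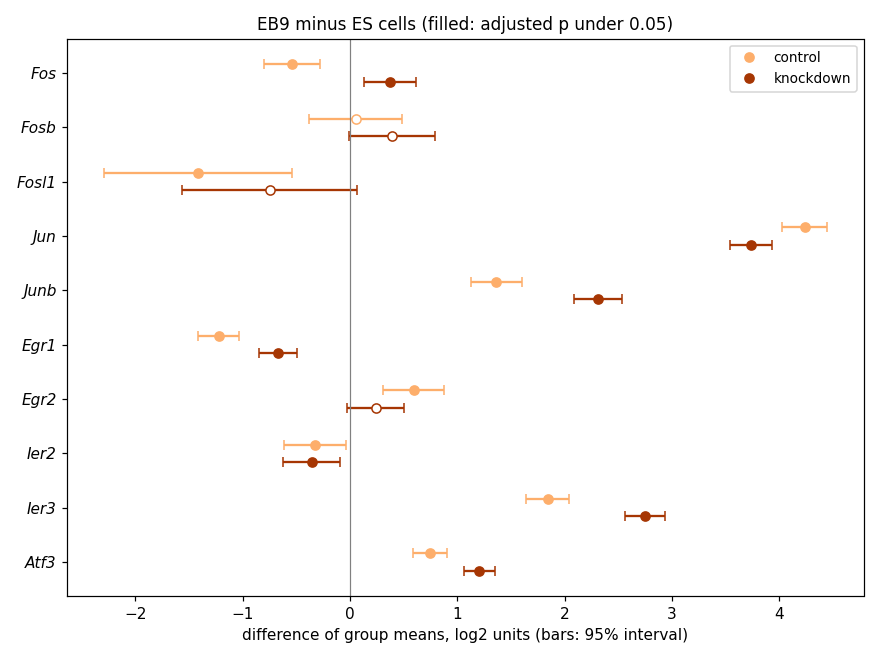
EB9 minus ES cells for each of the 10 genes among controls and among knockdown cells (horizontal axis, log2 units); points are differences of group means, bars 95% intervals, filled points passed the test. Jun lies farthest to the right, at 4.24 and 3.74, and Fos lies on opposite sides of 0 in control and knockdown cells.

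Other immediate early genes and their regulators, a list of 34 of which 32 were tested, were counted in the same way. With knockdown 15 were lower and 3 higher in ES cells, beside 16.4% and 21.8% of all genes, and their median difference was -0.26. In EB9, 15 were higher and 1, Myc, was lower, beside 7.75% and 6.97%, with a median of 0.31. The number higher in EB9 ranged from 8 (arrays scaled to their median, or only the EB9 arrays fitted) to 21 (slide as a block, or array weights) over other processing choices, and from 10 to 15 when 1 array was left out. The share of all genes called in either direction in EB9 moved too. It was 6.19% with scaling to the median, 4.88% with only the EB9 arrays, 26.1% with slide as a block and 29.9% with array weights. With 1 array left out it ranged from 8.03 to 20.3%. In ES cells the number lower ranged from 13 to 21 over the other processing choices, and the number higher from 0 (normexp, the authors' values or scaling to the array median) to 7 (array weights), and from 1 (without ES knockdown 1 or 4 or ES control 3 or 4) to 4 with 1 array left out. The share of all genes called in ES cells was 26.9% with scaling to the median, 34.3% with normexp or the authors' values and 64.6% with array weights. The difference between the stages in the knockdown effect passed for 19 genes, all more positive in EB9. Of all genes, 29.4% were called in that comparison and 12.6% in that direction. The median of the list was 0.58, beside -0.04 over all genes. Of the 32 genes, 7 were lower in ES cells and higher in EB9: Arc, Btg2, Ccn2, Errfi1, Fosl2, Maff and Plaur. The share of all genes with both of these calls was not counted.

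Fosl2, which encodes the AP-1 subunit Fra-2, fell by 0.94 with knockdown in ES cells (SE 0.08, adjusted p = 2.51e-06) and was higher in EB9 by 0.63 (SE 0.08, adjusted p = 0.000307). It was also the gene of the list that was most raised by stage, by 4.69 among controls and 6.26 among knockdown cells (adjusted p = 2.18e-14 and 1.32e-15). Arc, the activity-regulated cytoskeletal gene, fell by 1.75 in ES cells and was higher by 0.47 in EB9 (adjusted p = 1.39e-07 and 0.00772). Its effect differed between stages by 2.22 (SE 0.14, adjusted p = 9.56e-07). Btg2, an antiproliferative gene, fell by 0.82 in ES cells and was higher by 0.44 in EB9 (adjusted p = 2.15e-06 and 0.000995), a difference between stages of 1.26. Ptgs2, which encodes cyclooxygenase 2, had a measured difference of 0.96 in EB9 (SE 0.17, adjusted p = 0.0029), and Klf2, a Krüppel-like factor, one of 0.71 (SE 0.09, adjusted p = 0.000481). Phlda1 fell by 1.25 in ES cells (SE 0.09, adjusted p = 3.93e-07), and its EB9 difference of -0.22 did not pass (adjusted p = 0.0818). Klf4, also a pluripotency factor, had EB9 minus ES differences of -4.42 among controls and -3.57 among knockdown cells (adjusted p = 1.53e-13 and 4.67e-13).

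**Figure D4:**
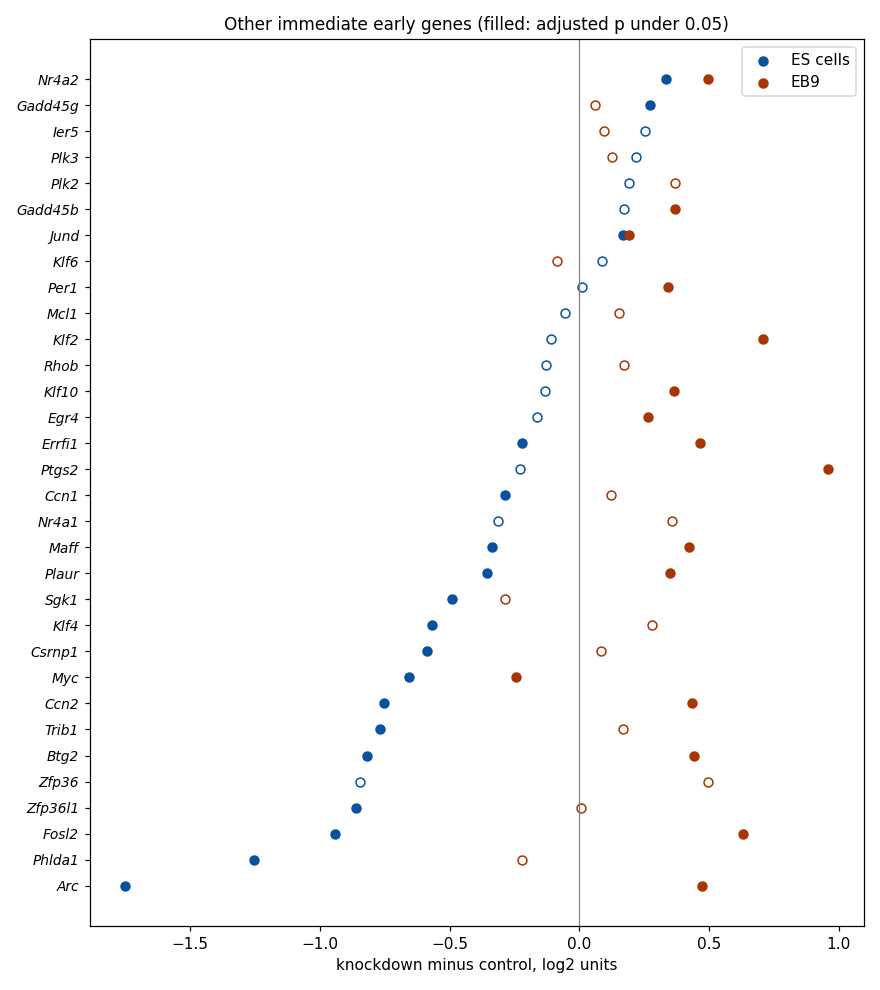
Knockdown minus control in ES cells and in EB9 (horizontal axis, log2 units) for the 32 tested genes of the list of other immediate early genes; filled points passed the test. In ES cells 15 genes lie below 0 and passed, and in EB9 15 lie above 0 and passed.

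The counts of the lists that follow stand beside 21.8% of all genes called higher and 16.4% lower in ES cells, and 7.75% and 6.97% in EB9. Upstream of these genes, none of the 6 genes of SRF and its cofactors was called with knockdown in EB9, while 3 were lower in ES cells and none was higher. Elk3, a ternary complex factor, fell by 1.22 in ES cells (SE 0.07, adjusted p = 5.81e-08) and rose with stage by 3.88 among controls (SE 0.07, adjusted p = 1.88e-14). The 12 cytoskeletal targets of SRF with its MRTF cofactors, a separate branch, had 6 higher and 2 lower in ES cells and none called in EB9. The 16 ERK pathway kinases and CREB had 4 higher and 6 lower in ES cells and 1 in each direction in EB9, the latter near the share of all genes. Among 13 ERK feedback and output genes, 1 was higher and 5 lower in ES cells, and 2 were higher and 3 lower in EB9. The 2 that were higher in EB9 were the MAP kinase phosphatases Dusp1 (0.62, SE 0.10, adjusted p = 0.00172) and Dusp5 (0.54, SE 0.12, adjusted p = 0.0106), and Dusp5 was higher in ES cells too (0.46, adjusted p = 0.0124). Etv4, an ETS factor downstream of FGF and ERK signalling, was lower at both stages, at -1.33 in ES cells and -0.95 in EB9 (adjusted p = 5.73e-07 and 6.21e-05).

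Against the same shares (21.8% higher and 16.4% lower in ES cells, 7.75% and 6.97% in EB9), among 12 AP-1 partners and Egr corepressors, 1 was higher and 6 lower in ES cells, and 3 were higher and none lower in EB9. Nab2, a corepressor that is itself induced by Egr1, fell by 0.73 in ES cells (SE 0.08, adjusted p = 1.85e-05) and was higher by 0.29 in EB9 (SE 0.07, adjusted p = 0.0219). Jdp2, a Jun dimerisation partner, fell by 0.47 in ES cells and was higher by 0.33 in EB9 (adjusted p = 3.57e-05 and 0.00188). The 13 ATF4 and unfolded protein stress genes, a response of which Atf3 is a known target, had 9 higher and none lower in EB9, and 3 in each direction in ES cells, near the share of all genes. Their median differences were 0.28 and -0.12. Ddit3, which encodes CHOP, was higher in EB9 by 0.57 (SE 0.09, adjusted p = 0.00206), the pseudokinase gene Trib3 by 0.52 (SE 0.09, adjusted p = 0.0028) and Herpud1 by 0.50 (SE 0.06, adjusted p = 0.000471). In ES cells Ddit3 and Herpud1 were also higher, by 0.54 and 0.38 (adjusted p = 0.00105 and 0.000902), and Trib3 fell by 0.33 (adjusted p = 0.0152). Of 8 heat shock genes tested, 1 was higher and 1 lower in EB9; the former was Hspa1a (1.07, SE 0.20, adjusted p = 0.00459), which was higher in ES cells too (0.64, adjusted p = 0.0319), where 1 was higher and 2 were lower. Of 12 NF-kB targets, 4 were higher and 5 lower in ES cells, and 3 were higher and 1 lower in EB9.

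Marker genes of the cells that ES cultures and embryoid bodies can hold were read on the same arrays. All 8 ES cell markers were lower in EB9 among controls and among knockdown cells, beside 41.5% and 44.1% of all genes, and all 7 endoderm markers were higher, beside 33.2% and 33.8%. Summed over the list, with 1 standing for the signal at the 75th percentile, ES cell markers were 209 to 222 in control ES, 188 to 205 in knockdown ES and 10.2 to 16.1 in EB9 cells. Fibroblast markers, which feeder cells would carry, were 3.74 to 3.98 in control ES and 4.08 to 4.38 in knockdown ES cells. In EB9 they were 93.1 to 149. Col3a1 and Postn were well above background on no ES array, so the ES sums came from other genes of that list. Of its 6 genes, 5 were higher and 1 was lower in EB9, among controls and among knockdown cells alike. Neuroectoderm markers were 2.67 to 3.20 in control ES and 2.44 to 2.58 in knockdown ES cells. For these 3 lists the knockdown and control ES sums did not overlap, and their part in the ES differences of Jun, Junb, Egr1 and Egr2 was not tested. With knockdown in ES cells, 21.8% of all genes were called higher and 16.4% lower. Beside that, 2 of 8 ES cell markers were higher and 2 lower. None of 6 fibroblast markers was higher and 1 was lower, and 2 of 4 neuroectoderm markers were higher and 1 lower. A sum follows its brightest probes most, and the sums did not always follow these counts. The fibroblast sum was higher with knockdown and the neuroectoderm sum lower. Blood markers were 0.21 to 0.40 in ES and 106 to 229 in EB9 cells. With knockdown in EB9, 4 of 5 tested primitive streak and mesoderm markers were lower and none higher, beside 6.97% and 7.75% of all genes, with sums of 10.1 to 11.3 in control and 7.77 to 9.62 in knockdown arrays. Of the 8 ES cell markers, 3 were higher and 1 lower there, and 1 of 7 endoderm, 1 of 6 fibroblast, none of 4 neuroectoderm and none of 5 blood markers were lower, with none higher. The endoderm sums were 21.2 to 25.2 in control and 23.5 to 26.8 in knockdown EB9 arrays, those of fibroblast markers 93.1 to 134 and 99.5 to 149, and those of neuroectoderm markers 2.27 to 2.60 and 2.13 to 2.44. Their part in the EB9 differences of Fos, Junb, Ier3 and Atf3 was not tested.

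The genes whose 4 group means followed those of a member most closely, by the root mean square difference after centring each gene, were found for the 6 members that spanned at least 1 log2 unit. For Jun they were Gucy1b3 (0.04), Fbn2 (0.05) and Scarf2 (0.05), for Junb Tmem200a (0.02), Kdm3a (0.04) and LOC100038760 (0.04), and for Ier3 Apol9b (0.04), Ypel4 (0.06) and Cacna1h (0.07). For Atf3 they were Slc2a4 (0.03), LOC100044124 (0.04) and 8030453O22Rik (0.04), for Egr1 Ubtd1 (0.02), Sgol1 (0.04) and ENSMUST00000090285 (0.04), and for Fosl1 Pdk4 (0.03), Gm4137 (0.04) and Otud1 (0.04). No member was among the 3 nearest genes of another. Among the 6 members, Fosl1 and Egr1 were closest to each other, at 0.23, and Junb and Ier3 lay at 0.25. Many other genes lay nearer, as Egr1 ranked 982 for Fosl1 and Fosl1 ranked 1129 for Egr1. Ier3 ranked 313 for Junb, and Junb 141 for Ier3. The EB9 means of Fosl1 rest mostly on arrays near background, which limits what its neighbours show.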

How the data were processed

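Per the file headers, Agilent Feature Extraction (version 10.7.3.1) gave the authors' intensity values, 1 colour and 1 scan per array, corrected for background and not scaled between arrays. The authors' own log2 table, also deposited, has values that share 1 distribution over all arrays and served as an alternative. Per the labels, 500 ng of total RNA per sample was labelled with Cy3.

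Each array's processed signal was log2-transformed and its 75th percentile over non-control spots subtracted. Control spots and the 109 to 179 spots flagged as outliers per array were left out, spots of a probe were averaged, and probes well above background on at least 3 arrays of a group were kept (27248). A gene's value is that of its brightest kept probe. A mean per group was fitted over all 15 arrays with limma 3.58.1 (R 4.3.3), two-sided, after tests on simulated data. Samples with the same slide deviated together from their group means (median r across genes 0.43, range 0.21 to 0.63, 21 pairs) and those with the same replicate number did not always (0.34, -0.59 to 0.55). Slide was therefore the block reported beside the main fit, which has no block. These correlations do not show how the cultures were paired. Alternatives covered background correction, scaling, filters, blocks, weights and each array left out. The members and gene lists were chosen with earlier results of these data known. All 10 members are named, with the 3 largest passing changes of a list at most and the 3 nearest patterns as the naming rule; Errfi1, Ccn2, Maff, Plaur, Myc and Jdp2 were named after their values were seen.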

Additional observations from a re-analysis of the deposited data

Results flagged for a closer look

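In the group of 4 knockdown EB9 arrays, Atf3 on array 4 (0.91) stood apart from the other 3 by more than the 95% limit of Dixon's test. It was the only one of 30 groups of 4 arrays examined over the 10 genes, and chance flags about 1 in 20.

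The knockdown effect differed between EB9 and ES cells by the test of the difference itself (limma) for 6 genes, beside 29.4% of all genes. With scaling to the array median 4 members were called, beside 18.3% of all genes, and Egr1, Atf3 and Jun lost their calls. In the main fit the effect was more positive in EB9 for Fos (0.92), Junb (0.95), Ier3 (0.91), Egr1 (0.55) and Atf3 (0.46), and less positive for Jun (-0.50).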

How the results depend on the processing

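Over 12 other processing choices, 537 of 590 values of single genes kept their sign and their side of the threshold, 13 lost their call, 34 gained one and 6 turned in sign; with 1 array left out at a time the numbers were 717, 10, 10 and 13 of 750. With array weights, 8 members were called in ES cells, where that choice called 64.6% of all genes in either direction. With 1 array left out, 3 to 5 members were called in ES cells, beside 30.3 to 40.2% of all genes in either direction. In EB9, 4 to 5 were called, beside 8.03 to 20.3%. For stage, 8 to 9 were called among controls (71.1 to 75.1% of all genes) and 6 to 9 among knockdown cells (75.8 to 78.6%). The difference between stages stayed at 6 members, beside 24.5 to 31.6%. The all-gene shares without ES control 2 were missing for the comparisons that use control ES arrays. The values that turned in sign had not passed. Fosb in ES cells became 0.0015 (normexp), 0.0013 (the authors' values) and 0.0261 (slide as replicate block), and ranged from -0.26 to 0.134 with 1 array left out, positive without ES knockdown 4 or ES control 3 or 4. The stage difference of Fosb among controls became -0.324 with array weights and ranged from -0.175 to 0.219 with 1 array left out, negative without ES control 2 or EB9 control 1 or 2. Ier2 became 0.0021 (the authors' values), 0.0376 (replicate number as block) and 0.0042 to 0.0367 (6 arrays left out singly) for the difference between stages, and in EB9 ranged from -0.0107 (without EB9 knockdown 1) to 0.135. The cause was not tested.

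The slide block changed the calls of Fos in ES cells, Jun and Egr2 in EB9 and Fosl1 for stage in knockdown cells (adjusted p = 0.0372), and no other call of a member. Scaling to the array median moved the median of all genes from -0.14 to 0.02 for stage among controls. Signal over background limits Fosl1 in EB9.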
